A study of Homo sapiens with 4 samples.

Results

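The semaphorins, plexins and neuropilins are a family of secreted and membrane-bound guidance ligands together with their receptors. They were taken from the deposited gene table by symbol (SEMA3 to SEMA7 with a letter, PLXNA to PLXND with a number, NRP1 and NRP2), which gave 31 of its 57820 genes. These were 20 semaphorins, 9 plexins and 2 neuropilins. RNA was measured in A549, an established human lung adenocarcinoma cell line that the series title calls NRF2-activated, and the comparison addresses how its RNA changes when CEBPB, a transcription factor of the C/EBP family, is lowered. All 4 libraries came from cells transfected with a small interfering RNA (siRNA, a short duplex that lowers a chosen mRNA). In 2 libraries (control 1 and control 2) this was control siRNA, in 1 it was CEBPB siRNA-1 and in 1 it was CEBPB siRNA-2. Cells were collected 24 h after a change of medium that itself came 24 h after transfection, and the total RNA was made into strand-specific libraries read as 76-base single-end reads. Each CEBPB siRNA therefore has a single library, and the labels do not say whether the controls were separate cultures, so the p-values measure only the spread between these libraries. Transfection of 1 cell line lowers a transcript without removing it, and bulk RNA cannot tell fewer cells of a type from less RNA per cell.

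Semaphorins were first described as cues that repel growing axons, and they also act on epithelial, endothelial and immune cells. Secreted class 3 semaphorins mostly bind a neuropilin, which holds the ligand while a plexin A passes the signal inward, whereas the membrane-spanning class 4 to 6 and the lipid-anchored SEMA7A bind plexins or other receptors directly. The cytoplasmic part of a plexin switches off RAP GTPases and recruits regulators of other small GTPases, and so loosens adhesion and the actin cytoskeleton. Neuropilins also bind VEGF-family growth factors.

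Values per library are given as FPKM, a read density corrected for the length of the transcript and the depth of the library. The file does not name this unit, which was taken from the form of the values. CEBPB itself measured 78.7 and 80.9 FPKM in control 1 and control 2, then 12.9 under siRNA-1 and 10.97 under siRNA-2. This gave a pooled log2 change of -2.65 ± 0.17 (SE), with an adjusted p of 0.0167 by limma. The FPKM of a library summed to 494066 to 528606, with 13752 to 14325 genes at 1 FPKM or more, and the authors' mean normalized counts, from the authors' deposited table, summed to 8341083. The median gene moved by -0.03 (siRNA-1) and 0.04 (siRNA-2) on the log2 scale from the control mean. More genes lay over 1 on the log2 scale from the control mean with siRNA-1 (1446) than with siRNA-2 (572), and 235 differed that far between the controls. Keratins and other epithelial markers, of which 7 of 11 were tested, summed to 4276 and 5840 FPKM under control siRNA. Their sums were 3028 under siRNA-1 and 4007 under siRNA-2. With siRNA-1 and siRNA-2, KRT18 was at 0.268 and 0.637 times the control mean, and KRT7 at 1.66 and 1.61 times. The lung lineage genes NKX2-1 and SFTPB were at 0 in every library. SFTPC was above 0 only in control 1 (0.914 FPKM), and NAPSA lay between 0.468 and 1.09 FPKM. Leukocyte markers PTPRC and CD3E, endothelial CDH5, VWF and TEK, and neural SOX10 were at 0 throughout. The neural list as a whole summed to 85.8 and 115 FPKM under control siRNA, 107 under siRNA-1 and 134 under siRNA-2, nearly all of it TUBB3 (85.4, 114, 107 and 134), with 1 of 4 genes tested.

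In the pooled comparison of both CEBPB siRNA libraries with the controls, the ligand SEMA3C and the transmembrane semaphorin SEMA4B were higher and SEMA4G was lower in both siRNA libraries. In the authors' deposited table these 3 genes and SEMA7A passed an adjusted p of 0.05. Of the 26 family genes with an adjusted p in the authors' deposited table, 3 were higher, where 2.71% of all genes were higher, and 1 was lower, where 1.42% of all genes were lower. By limma, which fits a linear model to every gene and shares the estimate of the spread between genes, no family gene passed after Benjamini-Hochberg adjustment. Of the 14068 genes that averaged 1 FPKM or more and were tested, 0.0640% were called higher and 0.171% lower. The test covered 18 of the 31 family genes, and 5 of them had an unadjusted limma p below 0.05, beside 12.2% of all tested genes.

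Taken apart by siRNA, the limma calls came from siRNA-1. SEMA3C, SEMA4B and SEMA4G moved the same way with siRNA-2, at 2.11, 1.76 and 0.409 times the control mean, but were not called. With siRNA-1 against the controls, 5 of the 18 tested family genes rose (SEMA3C, SEMA4B, SEMA7A, PLXNB2 and NRP2), where 6.24% of all tested genes were called higher. Of the 5, SEMA7A reached the level tested only through its siRNA-1 value, so its call was decided in part by the filter and is not counted as support. With siRNA-1, 3 fell (SEMA4G, SEMA6B and PLXND1), where 6.41% of all tested genes were called lower. None of these 8 calls held without the filter on low values, and no other gene was called with siRNA-1 in that setting. With siRNA-2 against the same controls none of the 18 was called by limma, where 0.206% of all tested genes were called higher and 0.284% lower, and 7 of the 18 had an unadjusted p below 0.05, beside 14.7% of all tested genes. The median log2 value of the 18 was 0.35 for siRNA-1 and 0.29 for siRNA-2, beside -0.03 and 0.04 over all tested genes. These medians include SEMA7A and moved with the settings, from 0.09 (no filter) to 0.47 (without control 1) for siRNA-1, with 0.21 without control 2, and from 0.12 (no filter) to 0.49 (filter at 5 FPKM) for siRNA-2. Between the siRNAs themselves 1 of the 18 differed, SEMA6B, which was lower with siRNA-1, where 0.114% of all tested genes were called higher and 0.327% lower. With median-of-ratios scaling that split of all genes, 16 higher and 46 lower, was 85 and 78. These siRNA fits rest on 1 residual degree of freedom, that between the controls, and assume that a single siRNA library varies as the controls do.

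**Figure D1:**
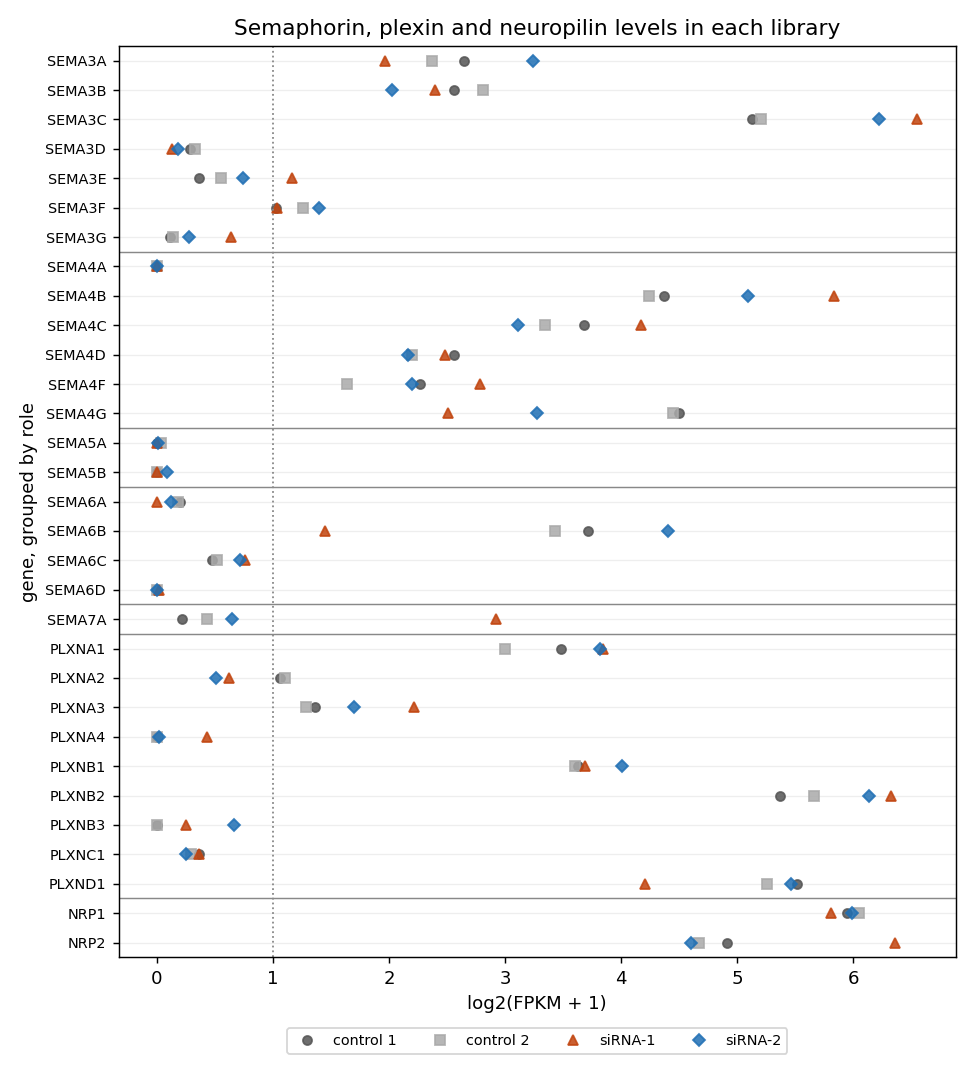
Level of each of the 31 family genes in each of the 4 libraries, as log2(FPKM + 1), grouped by role from secreted semaphorins to neuropilins; the dotted line marks 1 on this scale, that is 1 FPKM. SEMA3C, SEMA4B and PLXNB2 lie right of both controls with either siRNA and SEMA4G lies left of them, while SEMA6B, SEMA7A, PLXND1 and NRP2 have the siRNA-1 point apart from the rest.

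SEMA3C, SEMA4B and SEMA4G are the genes called in the authors' deposited table that both controls already expressed above 1 FPKM, so a stretch of promoter is printed for each. These are the 100 bases before 1 of the annotated starts of the gene, from RefSeq on GRCh38.p14, chosen because no GENCODE 29 exon lies in them, and written 5′ to 3′ on the gene's strand with CG pairs in capitals. They lie at chr7:80922390-80922489 on the minus strand for SEMA3C, chr15:90191821-90191920 on the plus strand for SEMA4B and chr10:100972429-100972528 on the plus strand for SEMA4G, and each holds 2 CG pairs. The windows of the other annotated starts, in which an exon lies, held more CG pairs. These were 16 for SEMA3C, 12 and 10 for SEMA4B, and 8 for SEMA4G. The printed windows of SEMA4B and SEMA4G lie downstream of another annotated start of the same gene. Which start A549 cells use was not analysed here.
SEMA3C: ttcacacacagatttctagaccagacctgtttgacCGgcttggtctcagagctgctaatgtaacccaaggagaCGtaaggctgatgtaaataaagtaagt
SEMA4B: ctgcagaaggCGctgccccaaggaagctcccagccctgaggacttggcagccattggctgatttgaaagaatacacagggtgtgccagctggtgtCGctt
SEMA4G: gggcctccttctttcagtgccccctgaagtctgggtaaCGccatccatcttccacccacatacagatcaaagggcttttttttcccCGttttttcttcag
RefSeq gave 48 promoter windows of 300 bases for 27 of the 31 family genes (NRP1, SEMA3A, SEMA6A and SEMA6B were not among them). They were searched on both strands for letters bound by C/EBP factors and, since the title calls this line NRF2-activated, for the antioxidant response element core. The C/EBP palindrome TTGCGCAA was in none of the 48 and in 0.151% of all 35114 promoters. Its relaxed form TTGCNNAA, which contains it, was in 2 (PLXNB3 and PLXNC1) and in 10.5% of all promoters. The C/EBP-ATF composite TGATGCAA was in none, and in 0.866% of all promoters. The core TGACNNNGC was in 3 (SEMA3B, SEMA6D and PLXNA4) and in 13.3% of all promoters. Windows of the family had a median GC content of 65.0% and 17.5 CG pairs, beside 58.7% and 14 over all promoters. A letter match describes this window only.

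Among the secreted class 3 semaphorins, SEMA3C was the most abundant and the only one called with siRNA-1. SEMA3C (ENSG00000075223.9, chromosome 7), a ligand of neuropilins that also acts in heart and vessel development, had 34.0 and 35.9 FPKM in its control libraries, beside 92.9 (siRNA-1) and 73.7 (siRNA-2). Both siRNA libraries lay above both controls, at 2.66 and 2.11 times the control mean. Its log2 change was 1.39 ± 0.13 (SE) with siRNA-1 (limma, adjusted p = 0.00941), and the siRNA-2 value was 1.06 ± 0.13 (limma, adjusted p = 0.0614). Pooled over both siRNAs it was 1.22 ± 0.18 (limma, adjusted p = 0.102), while the authors' deposited table gave 1.21 ± 0.25 with an adjusted p of 8.0e-05. The siRNAs differed on SEMA3C by 0.33, with a 95% interval of -0.06 to 0.72.

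SEMA3A, the founding repellent of the class, stood at 5.28 and 4.18 FPKM under control siRNA, against 2.91 under siRNA-1 and 8.47 under siRNA-2. The siRNA libraries thus lay on opposite sides of the controls. Neither difference passed the test, with log2 values of -0.55 ± 0.23 (limma, adjusted p = 0.179) and 0.73 ± 0.23 (limma, adjusted p = 0.255). The difference between the siRNAs was -1.28, with a 95% interval of -1.95 to -0.61 (limma, adjusted p = 0.0897).

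SEMA3B and SEMA3F are neighbouring genes on chromosome 3 that have been studied as tumour suppressors of the lung. SEMA3B measured 4.91 and 5.99 FPKM in control 1 and control 2, then 4.26 under siRNA-1 and 3.07 under siRNA-2, so both siRNA libraries were below both controls. Its pooled log2 difference was -0.47 ± 0.23 (limma, adjusted p = 0.505). SEMA3F had 1.03 and 1.39 FPKM in its control libraries, beside 1.05 (siRNA-1) and 1.63 (siRNA-2), and the groups overlapped. SEMA3D, SEMA3E and SEMA3G averaged under 1 FPKM and were not tested. Of these SEMA3E, which can bind PLXND1 without a neuropilin, stood at 0.288 and 0.464 FPKM under control siRNA, against 1.24 under siRNA-1 and 0.677 under siRNA-2, and the authors' deposited table gave it an adjusted p of 0.315.

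In class 4, SEMA4B rose and SEMA4G fell with siRNA-1. SEMA4B (ENSG00000185033.10, chromosome 15), a transmembrane semaphorin, measured 19.7 and 17.9 FPKM in control 1 and control 2, then 56.1 under siRNA-1 and 33.1 under siRNA-2. It was above both controls with either siRNA, at 2.99 and 1.76 times their mean. On the log2 scale the change was 1.53 ± 0.15 with siRNA-1 (limma, adjusted p = 0.00962), and the siRNA-2 value was 0.79 ± 0.15 (limma, adjusted p = 0.104). In the authors' deposited table the pooled change of SEMA4B was 1.19 ± 0.31 with an adjusted p of 0.00519, beside 1.16 ± 0.27 by limma (adjusted p = 0.202). The pseudogene RPS12P26, which lies in SEMA4B on the same strand, measured 0.263 and 0.272 FPKM in control 1 and control 2, then 1.21 under siRNA-1 and 1.11 under siRNA-2.

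SEMA4G (ENSG00000095539.11, chromosome 10), another transmembrane member, had 21.7 and 20.8 FPKM in its control libraries, beside 4.69 (siRNA-1) and 8.70 (siRNA-2). Both siRNA libraries were below both controls, at 0.221 and 0.409 of their mean. The log2 change was -1.97 ± 0.16 with siRNA-1 (limma, adjusted p = 0.00796), and the siRNA-2 value was -1.20 ± 0.16 (limma, adjusted p = 0.0698). In the authors' deposited table the pooled change of SEMA4G was -1.79 ± 0.35 with an adjusted p of 3.9e-05, beside -1.58 ± 0.29 by limma (adjusted p = 0.131). SEMA4G overlaps MRPL43, a mitochondrial ribosomal protein gene on the opposite strand, which stood at 55.9 and 56.7 FPKM under control siRNA, against 40.2 under siRNA-1 and 52.8 under siRNA-2. The libraries keep strand, but whether the authors' counting used it is not given in the sources used here, so reads of the overlap may have been assigned to either gene.

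SEMA4C, a ligand of PLXNB2, measured 11.9 and 9.17 FPKM in control 1 and control 2, then 17.0 under siRNA-1 and 7.64 under siRNA-2. It was highest with siRNA-1 and lowest with siRNA-2, and the log2 difference between the siRNAs was 1.06, with a 95% interval of 0.43 to 1.69 (limma, adjusted p = 0.104). SEMA4D, the ligand of PLXNB1 that is also known from lymphocytes, had 4.90 and 3.59 FPKM in its control libraries, beside 4.58 (siRNA-1) and 3.48 (siRNA-2). SEMA4F stood at 3.82 and 2.12 FPKM under control siRNA, against 5.90 under siRNA-1 and 3.59 under siRNA-2. The groups overlapped for these 3 genes, and none passed the test with either siRNA. SEMA4A was listed at 0 in every library.

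SEMA6B and SEMA7A had the largest differences between the siRNAs among the 18 tested genes. SEMA6B (ENSG00000167680.11, chromosome 19), a transmembrane ligand of plexin A receptors, measured 12.1 and 9.78 FPKM in control 1 and control 2, then 1.73 under siRNA-1 and 20.1 under siRNA-2. It was the lowest with siRNA-1 and the highest with siRNA-2, at 0.158 and 1.84 times the control mean. Its log2 change was -2.12 ± 0.21 with siRNA-1 (limma, adjusted p = 0.0100), and the value with siRNA-2 was 0.83 ± 0.21 (limma, adjusted p = 0.184). The siRNAs differed by -2.95, with a 95% interval of -3.57 to -2.33 (limma, adjusted p = 0.0404), a call that held under 2 of the 7 other settings tried. The authors' deposited table, which pools the siRNAs, gave SEMA6B a log2 change of -0.04 ± 1.36 and an adjusted p of 0.999.

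SEMA7A (ENSG00000138623.5, chromosome 15), the lipid-anchored semaphorin that binds PLXNC1 and beta-1 integrins, had 0.161 and 0.352 FPKM in its control libraries, beside 6.60 (siRNA-1) and 0.563 (siRNA-2). It was low in 3 libraries and entered the test only through siRNA-1, so its fitted values are given as a description. On the log2 scale these were 2.60 ± 0.25 (siRNA-1) and 0.32 ± 0.25 (siRNA-2), a difference of 2.28. The call for SEMA7A in the authors' deposited table, a log2 change of 4.17 ± 0.89 (adjusted p = 0.000223), thus rests on a pool in which 1 library is far above the other. Its receptor PLXNC1 stayed between 0.193 and 0.289 FPKM, below the level tested.

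**Figure D2:**
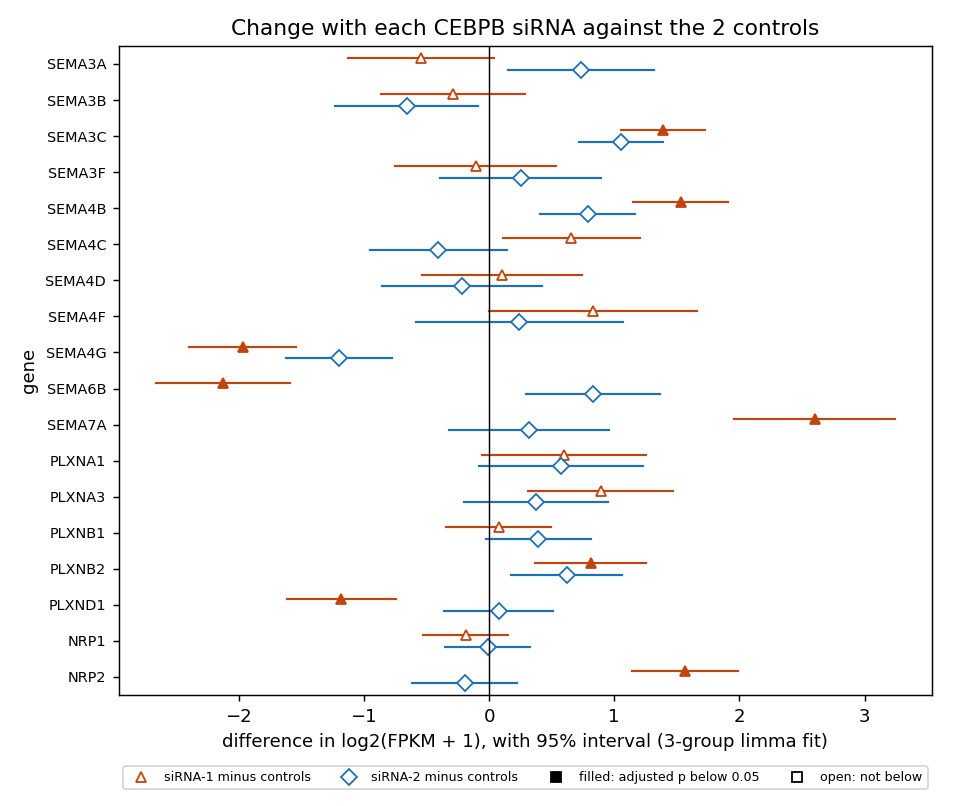
Difference in log2(FPKM + 1) between each CEBPB siRNA library and the 2 controls for the 18 tested family genes, with 95% intervals from the 3-group limma fit; filled points had an adjusted p below 0.05. The siRNA-1 points of SEMA6B and SEMA7A lie farthest from 0, at -2.12 and 2.60, and no siRNA-2 point is filled.

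Plexins are the signalling receptors, and PLXNB2 and PLXND1 were the most abundant of them in the controls. PLXNB2 (ENSG00000196576.10, chromosome 22), a receptor for class 4 semaphorins that is widely made in epithelia, stood at 40.2 and 49.8 FPKM under control siRNA, against 79.3 under siRNA-1 and 69.3 under siRNA-2. Both siRNA libraries were above both controls, at 1.76 and 1.54 times their mean. The log2 change was 0.81 ± 0.17 with siRNA-1 (limma, adjusted p = 0.0467), and the value with siRNA-2 was 0.62 ± 0.17 (limma, adjusted p = 0.215). The siRNA-1 call for PLXNB2 held under 1 of the 7 other settings in which it was tested. The authors' deposited table gave PLXNB2 a log2 value of 0.70 ± 0.24 with an adjusted p of 0.0792.

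PLXND1 (ENSG00000004399.8, chromosome 3), the receptor of SEMA3E known from blood vessels, measured 44.8 and 37.2 FPKM in control 1 and control 2, then 17.4 under siRNA-1 and 43.2 under siRNA-2. Only the siRNA-1 library lay apart, and the siRNA-2 library lay between the controls. Its log2 change was -1.18 ± 0.17 with siRNA-1 (limma, adjusted p = 0.0197), and the value with siRNA-2 was 0.08 ± 0.17 (limma, adjusted p = 0.877). The difference between the siRNAs, -1.26 with a 95% interval of -1.76 to -0.76, had an adjusted p of 0.0678 by limma. Pooled over both siRNAs the log2 value of PLXND1 was -0.55 ± 0.41 (limma, adjusted p = 0.652). In the authors' deposited table it was -0.76 ± 0.38, with an adjusted p of 0.410.

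The plexin A receptors, which pair with neuropilins for class 3 ligands and bind class 6 ligands directly, gave no call. PLXNA1 had 10.2 and 6.99 FPKM in its control libraries, beside 13.3 (siRNA-1) and 13.1 (siRNA-2), and both siRNA libraries were above both controls. PLXNA3 stood at 1.57 and 1.43 FPKM under control siRNA, against 3.64 under siRNA-1 and 2.24 under siRNA-2, with the same order of libraries and controls. The pooled log2 values were 0.59 ± 0.22 for PLXNA1 (limma, adjusted p = 0.384) and 0.63 ± 0.27 for PLXNA3 (limma, adjusted p = 0.439). PLXNA3 overlaps LAGE3 on the opposite strand, which had 12.1 and 11.9 FPKM in its control libraries, beside 9.80 (siRNA-1) and 14.8 (siRNA-2). PLXNA2 stood at 1.09 and 1.15 FPKM under control siRNA, against 0.536 under siRNA-1 and 0.423 under siRNA-2, an average below the level tested, and the authors' deposited table gave it a log2 value of -1.32 ± 0.45 with an adjusted p of 0.0695. PLXNB1, the SEMA4D receptor, measured 11.3 and 11.1 FPKM in control 1 and control 2, then 11.9 under siRNA-1 and 15.1 under siRNA-2. PLXNA4 and PLXNB3 were listed at 0 in both controls and reached 0.348 and 0.587 FPKM at most.

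Across the 18 tested genes, 7 had both siRNA libraries above both controls (SEMA3C, SEMA4B, SEMA7A, PLXNA1, PLXNA3, PLXNB1 and PLXNB2), as did 23.5% of all tested genes. Of these SEMA7A was tested only through its siRNA-1 value, so it is not counted as support. SEMA3B and SEMA4G had both below, as did 21.0% of all tested genes. The 13 family genes that averaged under 1 FPKM were SEMA3D, SEMA3E, SEMA3G, SEMA4A, SEMA5A, SEMA5B, SEMA6A, SEMA6C, SEMA6D, PLXNA2, PLXNA4, PLXNB3 and PLXNC1. Both class 5 members were among them, at no more than 0.0652 FPKM in any library. SEMA6A reached 0.145, SEMA6D 0.0101, SEMA3D 0.256, SEMA3G 0.557 and SEMA6C 0.693 FPKM at most. By the mean normalized count in the authors' deposited table, the genes called with siRNA-1 differed in depth. It was 2870 for SEMA3C, 2560 for PLXNB2, 1683 for NRP2, 1453 for PLXND1, 1009 for SEMA4B, 384 for SEMA6B, 372 for SEMA4G and 63.2 for SEMA7A in the authors' deposited table.

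NRP2 rose with siRNA-1, while NRP1, the most abundant family gene in the controls, was not called. NRP1, co-receptor for class 3 semaphorins and VEGF, had 60.6 and 65.1 FPKM in its control libraries, beside 55.0 (siRNA-1) and 62.4 (siRNA-2), and the groups overlapped. Its pooled log2 difference was -0.10 ± 0.16, with a 95% interval of -0.50 to 0.30 (limma, adjusted p = 0.857). NRP2 (ENSG00000118257.12, chromosome 2), co-receptor for SEMA3C, SEMA3F and VEGFC, stood at 29.2 and 24.5 FPKM under control siRNA, against 81.1 under siRNA-1 and 23.3 under siRNA-2. Only the siRNA-1 library was high, at 3.02 times the control mean, and the siRNA-2 library was just below the controls. NRP2 rose with siRNA-1 by 1.56 ± 0.16 on the log2 scale (limma, adjusted p = 0.0114), and the value with siRNA-2 was -0.19 ± 0.16 (limma, adjusted p = 0.650). The siRNAs differed by 1.76, with a 95% interval of 1.27 to 2.24 (limma, adjusted p = 0.0517). Pooled over both siRNAs the log2 value of NRP2 was 0.68 ± 0.55 (limma, adjusted p = 0.672). In the authors' deposited table it was 1.06 ± 0.85, with an adjusted p of 0.845. An antisense gene that overlaps NRP2 on the opposite strand, AC007362.1, measured 4.70 and 4.10 FPKM in control 1 and control 2, then 14.2 under siRNA-1 and 2.96 under siRNA-2, and reads of the overlap may have been assigned to either gene.

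The share of single genes within their class differed between libraries. All semaphorins summed to 120 and 113 FPKM under control siRNA, 200.4 under siRNA-1 and 166 under siRNA-2. SEMA3C made up 28.2% and 31.9% of that sum under control siRNA, 46.4% under siRNA-1 and 44.4% under siRNA-2. SEMA4G went from 17.99% and 18.5% under control siRNA to 2.34% under siRNA-1 and 5.24% under siRNA-2. The plexins summed to 109 and 108 FPKM under control siRNA, 127 under siRNA-1 and 144 under siRNA-2. Of that sum PLXND1 made up 40.9% and 34.4% under control siRNA, 13.7% under siRNA-1 and 29.9% under siRNA-2. The neuropilins summed to 89.8 and 89.6 FPKM under control siRNA, 136 under siRNA-1 and 85.6 under siRNA-2. NRP1 was the larger part except with siRNA-1, where NRP2 made up 59.6%. These shares describe 1 library each and were not tested.

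**Figure D3:**
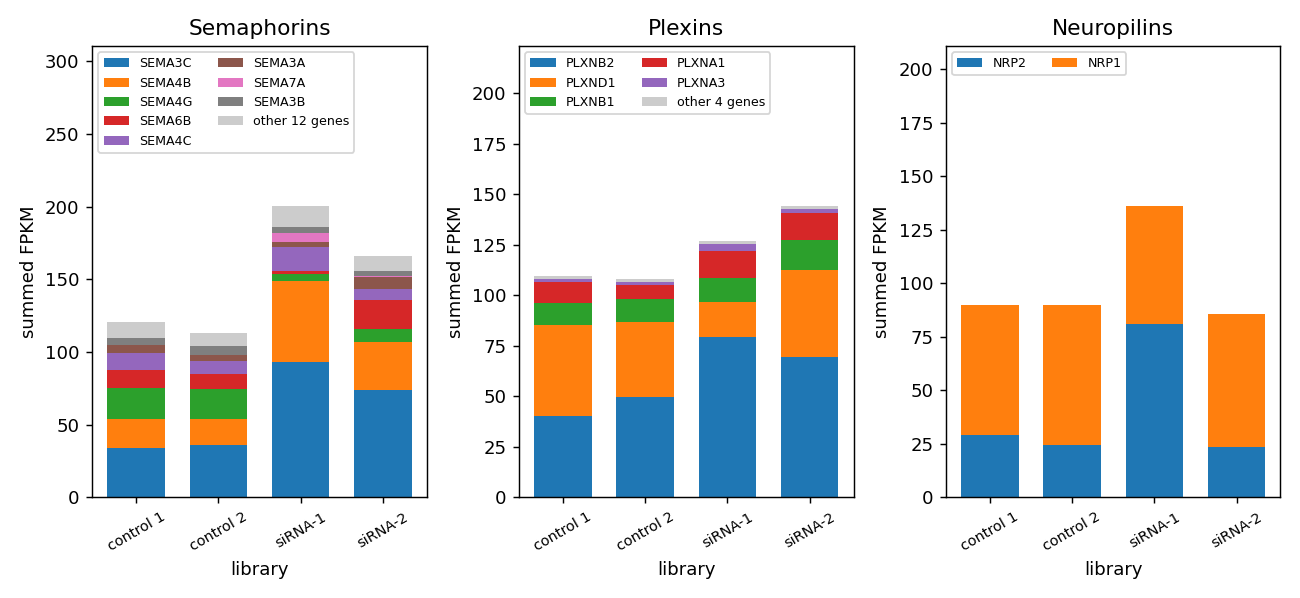
Summed FPKM of the semaphorins, the plexins and the neuropilins in each library, as stacked bars that start at 0 and are split by gene. The SEMA3C segment is taller with either siRNA than in the controls, and the NRP2 segment is tall only with siRNA-1, at 81.1 FPKM.

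Other genes of semaphorin signalling were taken from a list of 75 co-receptors, GTPases, effectors, kinases, adaptors and processing enzymes, of which 62 were tested. With siRNA-1, 12 of the 62 rose and 6 fell by limma (19.4% and 9.68%, beside 6.24% and 6.41% of all tested genes). None passed with siRNA-2 or in the pooled comparison. However, 18 of the 62 had an unadjusted limma p below 0.05 in the pooled comparison (29.03%, beside 12.2% of all tested genes) and 21 with siRNA-2 (33.9%, beside 14.7%). Both siRNA libraries lay above both controls for 35 of the 62 (56.5%) and below them for 10 (16.1%), beside 23.5% and 21.0% of all tested genes. The median log2 value of the list was 0.33 for siRNA-1 and 0.16 for siRNA-2, beside -0.03 and 0.04 over all tested genes. Of the 70 list genes with an adjusted p in the authors' deposited table, 6 were called higher and 1 lower (8.57% and 1.43%, beside 2.71% and 1.42% of all genes there). The smallest pooled p-values belonged to ROCK2, PXN, PCSK6, NCK1, DPYSL5 and MICAL2. Of these DPYSL5, also among the 12, averaged under 1 FPKM in the controls and reached the level tested only through the siRNA libraries.

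ROCK2, a kinase that RHOA activates to contract actomyosin, had 19.2 and 18.5 FPKM in its control libraries, beside 44.1 (siRNA-1) and 35.1 (siRNA-2). PXN, which encodes the focal adhesion adaptor paxillin, stood at 34.7 and 31.8 FPKM under control siRNA, against 60.1 under siRNA-1 and 59.1 under siRNA-2. MICAL2, of the MICAL family of actin-oxidising enzymes, measured 20.9 and 15.2 FPKM in control 1 and control 2, then 59.0 under siRNA-1 and 36.7 under siRNA-2. These 3 genes, all above both controls with either siRNA, were called higher in the authors' deposited table, with adjusted p of 0.00102, 0.00878 and 0.000551. DPYSL5, of the collapsin response mediator family that relays semaphorin signals in neurons, had 0.387 and 0.289 FPKM in its control libraries, beside 4.42 (siRNA-1) and 2.06 (siRNA-2). It was called higher as well in the authors' deposited table, which gave a log2 change of 3.22 ± 0.54 and an adjusted p of 7.3e-07. PCSK6, a proprotein convertase, stood at 15.6 and 17.6 FPKM under control siRNA, against 8.88 under siRNA-1 and 6.92 under siRNA-2. NCK1, an adaptor of receptor kinases, measured 21.0 and 20.5 FPKM in control 1 and control 2, then 9.45 under siRNA-1 and 11.8 under siRNA-2. Both lay below both controls with either siRNA and fell with siRNA-1 by limma, but neither was called in the authors' deposited table. It gave PCSK6 a log2 value of -0.80 ± 0.30 (adjusted p = 0.132) and NCK1 -0.55 ± 0.31 (adjusted p = 0.549).

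By group, 8 of the 9 tested MICAL and CRMP effectors had a log2 value above 0 with siRNA-1, and 8 of the 9 with siRNA-2. Of the 11 tested kinases and cytoskeletal genes these counts were 10 and 9. The 3 tested neuropilin ligands gave 1 and 0, and the 8 tested other receptors gave 6 and 6. For the 20 tested small GTPases and regulators the counts were 15 and 13, and for the 11 tested adaptors and processing genes 7 and 7. The 9 effectors include DPYSL5, which reached the level tested only through the siRNA libraries. Over all tested genes 46.7% had a value above 0 with siRNA-1 and 55.6% with siRNA-2. Among the neuropilin ligands, VEGFC, a ligand of NRP2, had 18.1 and 15.5 FPKM in its control libraries, beside 6.63 (siRNA-1) and 9.75 (siRNA-2). The authors' deposited table gave it a log2 change of -1.05 ± 0.31 (adjusted p = 0.0240). VEGFC was named after its values were seen, as it was the 1 gene of the list called lower in that table.

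**Figure D4:**
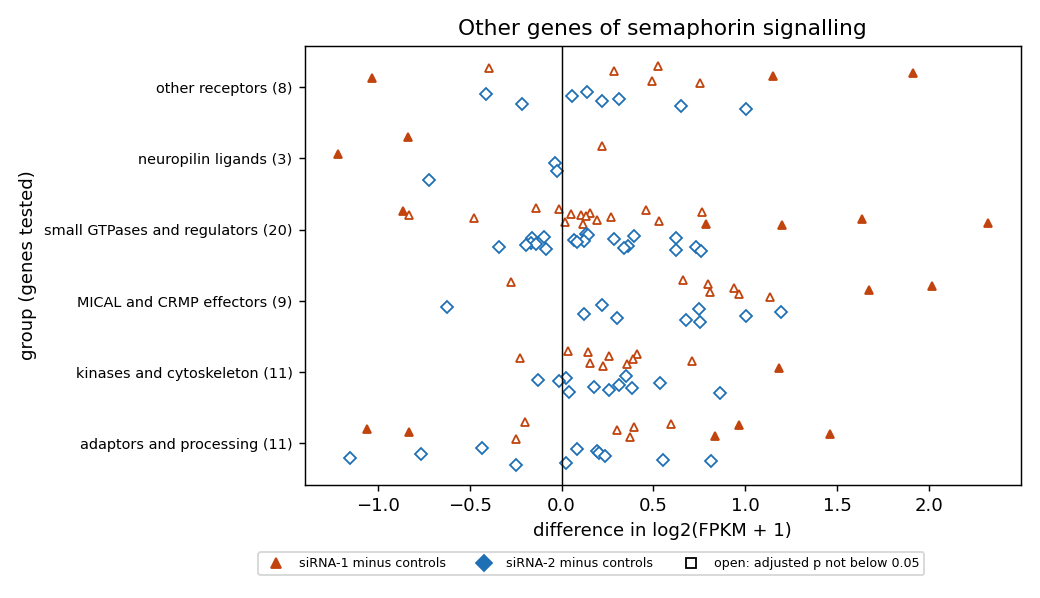
Difference in log2(FPKM + 1) between each CEBPB siRNA library and the 2 controls for the 62 tested genes of the signalling list, 1 point per gene and siRNA, in 6 groups; open points did not have an adjusted p below 0.05. Points of the MICAL and CRMP group lie mostly right of 0, and the filled points, 12 above and 6 below 0, all belong to siRNA-1.

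Markers of other cell types also differed between libraries. The leukocyte list summed to 11.2 and 13.8 FPKM under control siRNA, 19.9 under siRNA-1 and 7.42 under siRNA-2, with 3 of 6 genes tested. Its members went different ways: CD68 gave 7.09, 9.72, 16.8 and 4.69 FPKM in that order and was not called with siRNA-1 (limma, adjusted p = 0.0685). CD14 gave 3.03, 3.53, 0.862 and 2.002 FPKM and fell with siRNA-1, with a log2 change of -1.20 ± 0.23 (limma, adjusted p = 0.0380). The fibroblast list summed to 0.781 and 0.665 FPKM under control siRNA, 4.48 under siRNA-1 and 2.34 under siRNA-2, of which COL1A1 gave 0.717, 0.573, 4.22 and 2.23 while COL1A2 was at 0, with 1 of 6 genes tested. Both sums were highest with siRNA-1, as were NRP2 and SEMA7A, and their part in those results was not tested.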

How the data were processed

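RNA-seq of 4 A549 libraries was deposited as 1 table. Per the submitters' processing notes, the tools were DESeq2 1.26.0, HTSeq 0.13.5, StringTie 2.1.4 and STAR 2.7.0d and the build was hg19, with no role or order, and the annotation is not given in the sources used here. The deposited values per library were taken as FPKM, as the authors' header names no unit and the column sums differ. Per the file headers, the authors' other columns are a mean normalized count (signal), a log2 fold change with its standard error, a Wald score, and a p-value with its adjusted form. They were quoted, not recomputed. The table holds no count per library, so depth per library is unknown beyond the authors' sum.

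In R 4.3.3, log2(FPKM + 1) of the 14068 genes averaging 1 FPKM or more was fitted with limma 3.58.1 and its intensity trend, with Benjamini-Hochberg adjustment over all of them, a threshold of 0.05 and no block. The count test planned for a table of counts was not used. This scale understates the change of low genes. The pooled fit had 2 residual and 3.61 prior degrees of freedom, and the 3-group fit, which gave the values per siRNA, had 1 and 3.92. An exact permutation test of 2 against 2 libraries cannot go below p = 0.333 (two-sided). The script was tested on simulated data.

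Family genes averaging 1 FPKM or more were given per library. Fits were described for those past the threshold, for those whose siRNA libraries both lay outside the controls with a log2 change of 0.5 or more, or differing by 1 or more between siRNAs. Those of NRP1 and SEMA3B were added outside this rule, after their values were seen. From the signalling list, 6 genes with the smallest pooled p were named. Members and lists were chosen with earlier results of these data known. Replicate numbers were not used to pair the libraries in the main fits, and whether they mark pairs is not known. The alternatives were another pseudocount, filter, scaling and variance model, left-out libraries, a replicate block and a 3-group fit. Promoters came from RefSeq (GRCh38.p14).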

Additional observations from a re-analysis of the deposited data

Results flagged for a closer look

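SEMA6B met the criterion that 2 treatments with the same target differ by a test of the difference itself. Its level was 12.1 and 9.78 FPKM under control siRNA, 1.73 under CEBPB siRNA-1 and 20.1 under CEBPB siRNA-2, and the difference of siRNA-1 minus siRNA-2 was -2.95 on the log2 scale (limma, adjusted p = 0.0404). The adjusted p ran from 4.7e-05 to 0.0986 over the 7 other settings tried, and the call held in 2 of them. Each siRNA has 1 library, so a difference between siRNAs and a difference between 2 transfections cannot be told apart.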

How the results depend on the processing

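No family gene called with siRNA-1 or between the siRNAs changed sign within that comparison under the alternatives run. In the pooled comparison, which had no family call, SEMA6B was -2.12 without siRNA-2 and 0.83 without siRNA-1. The same fits gave NRP2 1.56 and -0.19, and PLXND1 -1.18 and 0.08. The other genes called with siRNA-1 kept their pooled sign. Among these SEMA7A was tested only through its siRNA-1 value, so its calls below are not counted as support. In the pooled comparison, leaving out 1 library in turn gave 0 to 5 family genes higher and 0 to 3 lower. The calls came without the siRNA-2 library (5 and 3, the 8 genes called with siRNA-1), and the 3-group fit gave 3 higher (SEMA3C, SEMA4B and SEMA7A) and 1 lower (SEMA4G). Without siRNA-2, 870 and 894 of all tested genes were called, and without either control 0 and 0. With the replicate block, 0 were higher and 0 lower; the block cannot move a log2 value in this balanced design (SEMA3C 1.22). Over all tested genes the block gave 11 higher and 14 lower, against 9 and 24 without it. Across 14068 genes the difference between the controls and that between the siRNAs had a Pearson r of 0.0754. Because each replicate number also goes with 1 siRNA, this r cannot decide whether the numbers pair the libraries. With siRNA-1, no filter on low values left 0 higher and 0 lower, and each other alternative that was tested gave 4 or 5 higher and 3 lower. With siRNA-2, no filter gave 1 higher (PLXNB3), a filter at 5 FPKM 4 higher and 1 lower, and median-of-ratios scaling 1 lower (SEMA4G). Between the siRNAs, the SEMA6B call was lost (0 lower) with a pseudocount of 0.1, TPM, upper-quartile scaling or no intensity trend. There, no filter lost SEMA6B too and gave 1 higher (PLXNA4) and 1 lower (PLXNB3), 5 FPKM 3 higher and 4 lower, and median-of-ratios scaling 2 higher (NRP2 and SEMA7A). Over all genes, the siRNA-2 calls ranged from 1 higher and 1 lower (TPM) to 324 and 269 (filter at 5 FPKM), and no filter gave 885 and 4. The cause was not tested. PLXNB3 and PLXNA4 were listed at 0 in both controls, and the residual spread of the siRNA fits comes from the controls alone. Their calls without the filter are therefore not counted as support. Without the filter, the siRNA-1 comparison lost every call over all genes too. The siRNA-1 fits without a control leave no residual degree of freedom and were values only. With 1 library per siRNA, precision is limited by the number of libraries, and genes near 1 FPKM by the pseudocount.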
